A study of Homo sapiens with 18 samples.

Results

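RNA was compared between a pair of human colorectal cancer cell lines that both overexpressed LIN28B and both received alpelisib. Cells with the LoVo label were set against DLD-1 cells, with 3 libraries on each side. Values were TPM, a length-scaled share of each library, and every gene with at least 1 TPM in 3 or more of these 6 libraries entered, which gave 16102 of the 61806 genes listed. The study held 6 groups of 3 libraries, 18 in all. They were LoVo LIN28B with 5 µM alpelisib, DLD-1 LIN28B with 5 µM alpelisib, LoVo LIN28B without drug, DLD-1 LIN28B without drug, LoVo with an empty vector (EV) and DLD-1 with EV. All groups grew in the same serum-containing medium. The labels do not say whether the LIN28B lines were clones or pools, what vehicle the cells without drug received or how long the drug was given. Separate cultures are not stated either, and the p-values below reflect variation among these libraries alone, which could be technical.

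Alpelisib inhibits the alpha isoform of phosphatidylinositol 3-kinase (PI3K), the enzyme that passes signals of growth factor receptors to the kinase AKT and to mTOR. AKT holds FOXO transcription factors out of the nucleus, and mTOR promotes translation, lipid synthesis and growth. LIN28B binds RNA and keeps let-7 microRNAs from maturing. The colon epithelium renews from LGR5-positive stem cells, whose progeny become absorptive colonocytes, marked among others by KRT20 and SLC26A2, or secretory cells such as goblet cells, which make mucins and peptides such as REG4. The transcription factor CDX2 binds many of their promoters.

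The promoters of KRT20 and REG4 are shown because both are colon markers and they differed between the lines in opposite directions. Capitals mark the hexamer TTTATG, a core of CDX2 sites, or its other strand CATAAA. Sequences run 5′ to 3′ on the gene's strand over 250 bases before to 50 bases after the RefSeq start, in GRCh38.p14.
KRT20 promoter, chr17:40885193-40885492, minus strand: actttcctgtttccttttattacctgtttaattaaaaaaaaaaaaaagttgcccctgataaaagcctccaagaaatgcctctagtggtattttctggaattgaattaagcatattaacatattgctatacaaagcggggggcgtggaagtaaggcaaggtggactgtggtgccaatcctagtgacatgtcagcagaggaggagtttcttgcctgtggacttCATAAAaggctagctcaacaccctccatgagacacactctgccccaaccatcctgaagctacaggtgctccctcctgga
REG4 promoter, chr1:119811411-119811710, minus strand: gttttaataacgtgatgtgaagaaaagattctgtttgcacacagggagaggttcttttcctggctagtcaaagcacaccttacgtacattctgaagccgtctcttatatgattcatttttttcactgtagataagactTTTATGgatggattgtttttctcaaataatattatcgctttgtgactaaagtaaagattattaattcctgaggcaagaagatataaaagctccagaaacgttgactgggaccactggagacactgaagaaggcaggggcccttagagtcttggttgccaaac
The hexamer in capitals begins -29 bases from the start in KRT20 and -112 in REG4, counted with the start at 0. It stood in 5 of 10 matched genes of the goblet and secretory list, 1 of 12 of the enterocyte list and 1 of 7 of the colon keratin and surface marker list. Over all 35116 RefSeq promoters of the same length the share was 10.6%, and over the 15733 promoters of genes tested it was 5.81%. A match is a run of letters, not a shown binding site.

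CDC20 and TOP2A are shown for the cell division genes, most of which were lower in the LoVo-labelled cells. Capitals mark TTTGAA, the core of the cell cycle gene homology region, or its other strand TTCAAA.
CDC20 promoter, chr1:43358731-43359030, plus strand: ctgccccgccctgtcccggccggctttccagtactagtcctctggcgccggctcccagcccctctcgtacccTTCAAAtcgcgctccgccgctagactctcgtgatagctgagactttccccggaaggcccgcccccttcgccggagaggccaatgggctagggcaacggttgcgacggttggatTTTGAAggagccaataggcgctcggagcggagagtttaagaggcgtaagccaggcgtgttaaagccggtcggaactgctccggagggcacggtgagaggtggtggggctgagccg
TOP2A promoter, chr17:40417847-40418146, minus strand: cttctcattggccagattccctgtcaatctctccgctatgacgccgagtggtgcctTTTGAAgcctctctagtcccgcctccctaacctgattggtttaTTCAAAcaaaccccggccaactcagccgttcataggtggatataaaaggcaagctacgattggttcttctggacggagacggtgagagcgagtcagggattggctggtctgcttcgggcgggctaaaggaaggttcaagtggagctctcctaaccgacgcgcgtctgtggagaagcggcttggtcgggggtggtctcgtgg
TTTGAA or TTCAAA stood in 24 of 33 matched mitosis and spindle genes (72.7%), in 2 of 12 enterocyte, 2 of 10 goblet and 0 of 7 colon marker genes, in 10.4% of the promoters of genes tested and in 15.2% of all promoters.

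The line label of the treated LoVo libraries was checked first. Pearson's r of log2(TPM + 1) across genes, which are not independent replicates, lay between 0.947 and 0.9607 for treated LoVo-labelled against treated DLD-1 libraries. It lay between 0.9021 and 0.9172 for treated LoVo-labelled against LoVo EV libraries and between 0.9187 and 0.9485 against DLD-1 EV libraries, and replicates of a group reached 0.9705 to 0.9855. Treated against untreated LoVo-labelled LIN28B libraries gave 0.9289 to 0.9558, and untreated LoVo-labelled against untreated DLD-1 LIN28B libraries 0.9622 to 0.9676. Of 46 genes at 20 TPM or more in LoVo EV and under 1 TPM in DLD-1 EV, 3 reached 20 TPM, 25 lay from 1 to under 20 TPM and 18 were under 1 TPM in the treated LoVo-labelled cells, with a median of 1.87 TPM against 29.5 TPM in LoVo EV. The treated DLD-1 cells held 42 of them under 1 TPM. SUGCT averaged 5.39 TPM in treated LoVo-labelled, 4.06 TPM in treated DLD-1 and 319.7 TPM in LoVo EV cells, and CD74 1.83, 0.877 and 274 TPM. CALB1, in contrast, measured 185 TPM in treated LoVo-labelled, 0.322 TPM in treated DLD-1 and 584 TPM in LoVo EV cells. RPS4Y1, on chromosome Y, averaged 23, 0.875 and 141 TPM in the same order. Of 8 genes with the opposite pattern between the EV lines, the medians were 16.7 TPM in treated LoVo-labelled, 32.4 TPM in treated DLD-1 and 0.527 TPM in LoVo EV cells. In treated LoVo-labelled cells 3 of them reached 20 TPM, 4 lay from 1 to under 20 TPM and 1 was under 1 TPM. KIT averaged 22.4, 22.2 and 0.54 TPM and TFF3 72.6, 66.8 and 0.702 TPM in the same order, but KRT20 averaged 7.48, 145 and 0.685 TPM. The treated libraries labelled LoVo were thus far from LoVo EV in most of these genes, and each line difference below is one between libraries so labelled.

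Mitochondrial transcripts took 9.27%, 8.22% and 12.2% of TPM in treated LoVo-labelled libraries and 15.8%, 14.8% and 10.6% in treated DLD-1 libraries, so the ranges overlapped. Depth is unknown, because TPM keeps no record of it. LIN28B measured 146, 160.3 and 155 TPM in LoVo-labelled cells and 149.7, 139 and 141 TPM in DLD-1 cells, a log2 difference of 0.10 (SE 0.15, limma adjusted p = 0.687), against 4.15 TPM in LoVo EV and 1.76 TPM in DLD-1 EV. The treated groups overlapped, and TPM does not separate the transgene from the endogenous transcript. Without drug LIN28B stood at 687 TPM in LoVo-labelled and 462 TPM in DLD-1 cells and was called higher in LoVo-labelled cells (a log2 difference of 0.58 (SE 0.15, limma adjusted p = 0.0142)), and it fell with alpelisib in both lines, by 2.15 in LoVo-labelled and 1.68 in DLD-1 cells on the log2 scale (limma adjusted p = 3.41e-08 and 1.11e-06). The epithelial genes KRT8, KRT18, KRT19 and EPCAM were all above 456 TPM in the 6 libraries. With CDH1 and CLDN7 they made up a list of 6 epithelial markers, all at 1 TPM or more in every treated library. Of the 6, 3 were called higher, 1 lower and 2 not called, with a median log2 difference of 0.071. Of markers of other cells, 2 of 8 for fibroblasts, 2 of 10 for immune cells and 0 of 7 for endothelium passed the level filter. Their summed levels were 7.31 to 9 against 3.63 to 4.95 TPM for fibroblasts, 2.93 to 4.18 against 3.59 to 7.26 TPM for immune cells and 0.246 to 0.737 against 0.394 to 0.451 TPM for endothelium, LoVo-labelled against DLD-1.

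Under alpelisib, 3525 of the 16102 genes (21.9%) differed at an adjusted p under 0.05 by limma on log2(TPM + 1), 2087 higher (13.0%) and 1438 lower (8.93%) in LoVo-labelled cells. A difference of at least 2-fold on that scale was called higher in 542 genes (3.37%) and lower in 158 (0.981%). Higher calls made up 59.2% of calls as deposited, but 47.7% after median-of-ratios scaling (1908 higher, 2089 lower) and 46.4% with mitochondrial transcripts left out (1803 higher, 2082 lower). The median of all genes was 0.046 as deposited, and the balance of directions therefore depends on the scale of the libraries. The TPM ranges of the groups did not overlap in 6015 genes (37.4%). Some genes passed the filter through 1 side alone: 100 had no LoVo-labelled library at 1 TPM and 324 had no DLD-1 library at 1 TPM. For such genes the lack of overlap follows from the filter. Of those named below, the 324 include CALB1, SLC39A2, GCNT3, HSD17B2, CEACAM7, FDCSP, DMKN, H2AJ, HBA1, MT1G, MUC2, DKK1 and CALML5. The 100 include KLK7 and PBDC1.

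**Figure D1:**
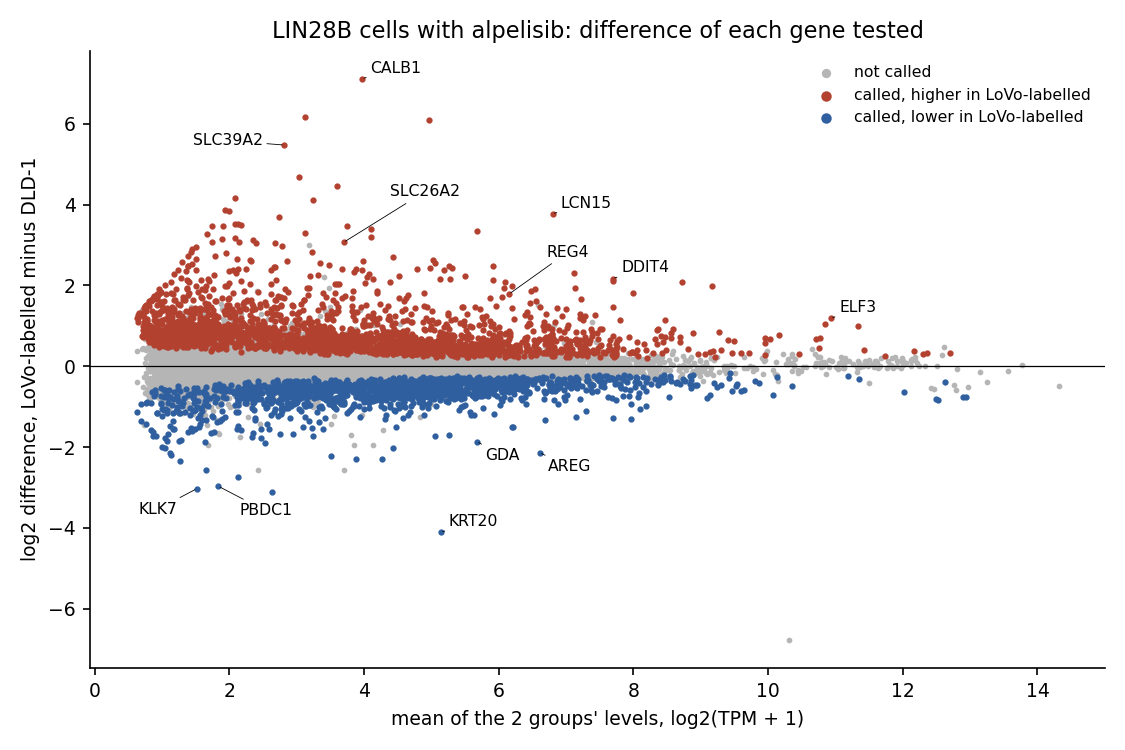
Each point is 1 of the 16102 genes, placed by the mean of both groups' levels as log2(TPM + 1) and by the log2 difference, LoVo-labelled minus DLD-1, in LIN28B cells with alpelisib. Red points were called higher and blue points lower; CALB1 stands highest at 7.12 and KRT20 is the lowest gene called, at -4.11.

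Of the 3 colon markers that name the contrast, KRT20 was lower and SLC26A2 and REG4 were higher in LoVo-labelled cells. KRT20, the keratin of differentiated colon epithelium (ENSG00000171431; chromosome 17, 40875941 to 40885227, minus strand, GRCh38), measured 6.46, 8.36 and 7.62 TPM in LoVo-labelled cells, against 133, 155 and 147 TPM in DLD-1 cells. All LoVo-labelled libraries lay far below all DLD-1 libraries, 19.4-fold by mean TPM, with a log2 difference of -4.11 (SE 0.13, limma adjusted p = 1.26e-12). It stood at 4.72 TPM in LoVo-labelled and 114 TPM in DLD-1 cells without drug, and at 0.685 TPM in LoVo EV and 124 TPM in DLD-1 EV. SLC26A2, a sulfate transporter of colonocytes (ENSG00000155850; chromosome 5, 149960737 to 149993455, plus strand), measured 39.2, 39.1 and 32 TPM in LoVo-labelled cells, against 3.52, 3.45 and 3.45 TPM in DLD-1 cells. The groups did not overlap and the ratio of means was 10.6, with a log2 difference of 3.07 (SE 0.14, limma adjusted p = 9.61e-11). Without drug it averaged 9.92 TPM in LoVo-labelled and 4.06 TPM in DLD-1 cells, so that its line difference was 1.96 log2 units larger with drug (limma adjusted p = 7.16e-05 for the difference of differences). REG4, a secreted lectin of secretory cells (ENSG00000134193; chromosome 1, 119794018 to 119811660, minus strand), measured 117, 136 and 142 TPM in LoVo-labelled cells, against 40.2, 36.2 and 35.5 TPM in DLD-1 cells. Every LoVo-labelled library exceeded every DLD-1 library, 3.53-fold by mean, with a log2 difference of 1.79 (SE 0.17, limma adjusted p = 7.3e-07). Without drug REG4 averaged 53.7 TPM in LoVo-labelled and 3.14 TPM in DLD-1 cells, a wider line difference on the log2 scale (3.745). The change of -1.96 between the differences was called (limma adjusted p = 0.000813). With alpelisib REG4 rose in both lines, by 1.27 in LoVo-labelled and 3.23 in DLD-1 cells in log2 units (limma adjusted p = 2.06e-05 and 3.2e-09). On the log2 scale REG4 thus kept its direction while the gap narrowed, and SLC26A2 kept its direction while the gap widened. For KRT20 the change of 0.22 was not called (limma adjusted p = 0.668).

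**Figure D2:**
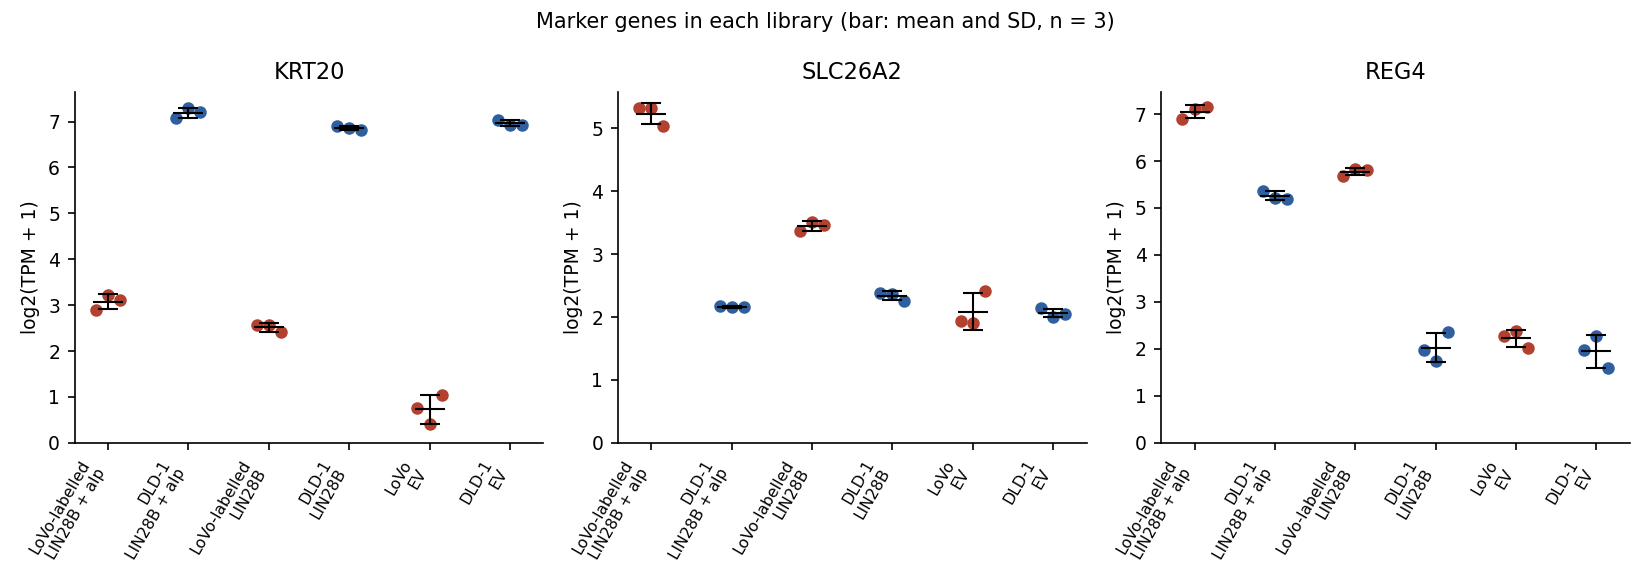
Levels of KRT20, SLC26A2 and REG4 as log2(TPM + 1) in each of the 18 libraries by group, with bars for mean and SD (n = 3) and red for LoVo-labelled or LoVo libraries. KRT20 is low in all LoVo-labelled groups, whereas SLC26A2 and REG4 are highest in LoVo-labelled cells with alpelisib.

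The largest positive difference was that of CALB1, the calcium-buffering protein calbindin, which measured 207, 210.4 and 138 TPM in LoVo-labelled cells, against 0.391, 0.215 and 0.359 TPM in DLD-1 cells, with a log2 difference of 7.12 (SE 0.19, limma adjusted p = 2.42e-13). SLC39A2, a zinc importer, measured 44.1, 46.6 and 47.3 TPM in LoVo-labelled cells, against 0, 0.0944 and 0.074 TPM in DLD-1 cells, with a log2 difference of 5.48 (SE 0.15, limma adjusted p = 2.42e-13). LCN15, a secreted lipocalin, measured 359, 433 and 440.5 TPM in LoVo-labelled cells, against 26.4, 33.6 and 27.6 TPM in DLD-1 cells, with a log2 difference of 3.77 (SE 0.15, limma adjusted p = 4.61e-11). Lack of overlap was a condition for naming these 3. All were called in the same direction without drug, at differences of 7.55, 5.34 and 3.66. Between the EV lines CALB1 and LCN15 were called higher in LoVo EV (8.34 and 2.68). SLC39A2 was not called between them (0.33, limma adjusted p = 0.0636), at 0.37 TPM in LoVo EV and 0.0738 TPM in DLD-1 EV. GCNT3, which branches mucin glycans, averaged 40.9 ± 6.43 TPM in LoVo-labelled and 0.62 ± 0.223 TPM in DLD-1 cells (limma adjusted p = 2.25e-08). NDUFA4L2, a complex I-like protein induced by hypoxia, averaged 56.3 ± 14.8 TPM in LoVo-labelled and 1.57 ± 0.364 TPM in DLD-1 cells (limma adjusted p = 3.71e-10). HSD17B2, which oxidises oestradiol, averaged 13.9 ± 1.38 TPM in LoVo-labelled and 0.295 ± 0.0929 TPM in DLD-1 cells (limma adjusted p = 5.85e-09). CEACAM7, a surface glycoprotein of differentiated colonocytes, averaged 13.4 ± 0.316 TPM in LoVo-labelled and 0.26 ± 0.115 TPM in DLD-1 cells (limma adjusted p = 4.58e-10). GCNT3, NDUFA4L2, HSD17B2 and CEACAM7 were not called between the EV lines, with log2 differences of 0.59, -0.42, 0.19 and 0.13.

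Other genes with large positive differences were chosen by the same rule. TDO2, a tryptophan dioxygenase, averaged 44 ± 4.22 TPM in LoVo-labelled and 3.04 ± 0.274 TPM in DLD-1 cells, NDRG2 averaged 162 ± 18 TPM in LoVo-labelled and 15.1 ± 2.46 TPM in DLD-1 cells and NRN1, a surface neuritin, averaged 54.3 ± 5.48 TPM in LoVo-labelled and 4.3 ± 0.905 TPM in DLD-1 cells. FAM3D, a secreted protein of the gut, averaged 26.1 ± 3.37 TPM in LoVo-labelled and 1.81 ± 0.849 TPM in DLD-1 cells, PIGZ, a mannosyltransferase of glycolipid anchors, averaged 51.4 ± 6.53 TPM in LoVo-labelled and 4.69 ± 0.404 TPM in DLD-1 cells and ODAM averaged 38.7 ± 7.04 TPM in LoVo-labelled and 1.27 ± 0.109 TPM in DLD-1 cells. FDCSP and DMKN, both secreted peptides, stood at 11.4 and 14.1 TPM in LoVo-labelled cells and at 0.125 and 0.36 TPM in DLD-1 cells. Being called without overlap was a condition for naming these genes. Between the EV lines NRN1, PIGZ, ODAM and DMKN were called higher in LoVo EV (2.85, 1.19, 2.15 and 7.09). TDO2 was not called there (0.0055), and NDRG2, FAM3D and FDCSP were called lower (-0.51, -1.42 and -0.74). A further 3 were listed at 0 in every treated DLD-1 library, so no fold is given. The histone variant gene H2AJ had 15.1, 16 and 20.04 TPM in LoVo-labelled cells, the alpha-globin gene HBA1 13.3, 13.3 and 14.3 TPM and the metallothionein gene MT1G 10.4, 5.71 and 11.1 TPM. HBA1 and MT1G have near-identical copies, between which reads could be split.

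Among the genes with the largest falls were both KLK7 and KLK6. KLK7, a secreted serine protease, was listed at 0 in all 3 LoVo-labelled libraries and at 8.01, 6.56 and 7.01 TPM in DLD-1 cells. KLK6, a protease of the same family, measured 6.25, 8.32 and 8.4 TPM in LoVo-labelled cells, against 40.5, 40.1 and 44 TPM in DLD-1 cells, with a log2 difference of -2.31 (SE 0.12, limma adjusted p = 7.42e-10). PBDC1 measured 0.616, 0.129 and 0.11 TPM in LoVo-labelled cells, against 10.1, 8.6 and 8.12 TPM in DLD-1 cells. The log2 difference of PBDC1 between these treated groups was -2.97 (SE 0.17, limma adjusted p = 2e-09). LoVo EV held 13 TPM, also above the treated LoVo-labelled level, but that contrast was not tested. RAMP1, which forms the receptor of the peptide CGRP, measured 1.12, 0.836 and 0.207 TPM in LoVo-labelled cells, against 9.25, 10.6 and 10.5 TPM in DLD-1 cells, with a log2 difference of -2.73 (SE 0.24, limma adjusted p = 4.56e-07). AREG, a ligand of the EGF receptor, measured 43.6, 45 and 47.6 TPM in LoVo-labelled cells, against 203, 227 and 182 TPM in DLD-1 cells, a 4.5-fold lower mean with a log2 difference of -2.14 (SE 0.082, limma adjusted p = 1.68e-11). The groups did not overlap in any of these genes, which was a condition for naming them. GDA, guanine deaminase, averaged 25.9 ± 3.82 TPM in LoVo-labelled and 96.4 ± 6.77 TPM in DLD-1 cells, and PDZK1IP1, a small membrane protein of absorptive epithelia, averaged 9.73 ± 1.32 TPM in LoVo-labelled and 42.5 ± 4.8 TPM in DLD-1 cells. IL33, an epithelial alarm cytokine, averaged 4.21 ± 0.365 TPM in LoVo-labelled and 16.3 ± 2.11 TPM in DLD-1 cells, and ERN2, the epithelial form of the stress sensor IRE1, averaged 17.2 ± 1.85 TPM in LoVo-labelled and 59.2 ± 7.66 TPM in DLD-1 cells. OLR1, a scavenger receptor, averaged 20.2 ± 1.09 TPM in LoVo-labelled and 68.4 ± 3.66 TPM in DLD-1 cells, and NRP1, a co-receptor for VEGF and semaphorins, averaged 2.26 ± 0.624 TPM in LoVo-labelled and 8.48 ± 0.875 TPM in DLD-1 cells. WNT10A, a Wnt ligand, averaged 3.34 ± 0.527 TPM in LoVo-labelled and 12.8 ± 0.352 TPM in DLD-1 cells, and MSLN, mesothelin, averaged 1.62 ± 0.248 TPM in LoVo-labelled and 6.8 ± 0.872 TPM in DLD-1 cells. The remaining genes with the largest falls among those called were NT5C3B (-2.3), RASSF10 (-2.21), C5orf63 (-1.77), KLRC2 (-1.74), TRIQK (-1.67) and CABP4 (-1.66), as log2 differences. Between the EV lines RAMP1, NT5C3B, WNT10A and MSLN were called higher in LoVo EV (1.7, 1.27, 0.96 and 1.6). PBDC1 and PDZK1IP1 were not called there, and the other genes of this paragraph were called lower. KLRC2 belongs to a family of near-identical genes, so its reads are uncertain.

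Colon keratins and surface markers moved mostly upwards. Of 16 listed, 14 were tested, 11 were higher, 1 was lower (KRT20) and 2 were not called, with a median of 0.79 against 0.046 over all genes and against 13.0% of all genes called higher. With 1 TPM required in all 6 libraries 9 were higher and 1 lower of 12. CEACAM5, the carcinoembryonic antigen, averaged 49.1 ± 11.1 TPM in LoVo-labelled and 9.44 ± 0.775 TPM in DLD-1 cells (limma adjusted p = 3.32e-06), and KRT19 averaged 3681 ± 422 TPM in LoVo-labelled and 1828 ± 106 TPM in DLD-1 cells (limma adjusted p = 1.89e-07). Between the EV lines CEACAM5 and KRT19 were called lower in LoVo EV (-1.76 and -0.63). KRT8 and KRT18, the paired keratins of simple epithelia, differed by 0.37 and 0.27 and were called higher; without drug KRT18 differed by -0.41 and was called lower, and its change between the differences was called (limma adjusted p = 0.00134). Keratin 20 was therefore the exception within its own list. Without drug the same list had 7 higher and 2 lower, against 8.75% and 6.94% of all genes.

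Goblet genes went both ways, whereas 7 of 14 enterocyte genes were higher and 1 was lower. Of 29 goblet and secretory genes 17 were tested and 5 (29.4%) were higher and 3 (17.6%) lower, against 13.0% and 8.93% of all genes, with a median of 0.10. With 1 TPM required in all 6 libraries 3 were higher and 3 lower of 13. MUC2, the gel-forming mucin of goblet cells, measured 3.44, 4.82 and 3.61 TPM in LoVo-labelled cells, against 0.478, 0.413 and 0.307 TPM in DLD-1 cells, low levels whose groups did not overlap (a log2 difference of 1.82 (SE 0.19, limma adjusted p = 3.25e-06)). LCN2, an iron-scavenging lipocalin, was in turn lower, and averaged 64.1 ± 4.28 TPM in LoVo-labelled and 164 ± 13.5 TPM in DLD-1 cells (limma adjusted p = 2.67e-08). TFF3, a goblet cell peptide, measured 60.5, 89.3 and 67.9 TPM in LoVo-labelled cells and 64.1, 62.9 and 73.4 TPM in DLD-1 cells, which overlapped (limma adjusted p = 0.782). Of 33 enterocyte and brush border genes 14 were tested and 7 were higher and 1 (7.14%) lower, with a median of 0.42. Some members passed the level filter mainly through the LoVo-labelled libraries, and with 1 TPM required in all 6 libraries 5 were higher and 1 lower of 11. FABP1, the fatty acid carrier of enterocytes, averaged 13.7 ± 2.7 TPM in LoVo-labelled and 0.761 ± 0.695 TPM in DLD-1 cells (limma adjusted p = 9e-07) and CFTR, the chloride channel, averaged 222 ± 8.82 TPM in LoVo-labelled and 96.4 ± 2 TPM in DLD-1 cells (limma adjusted p = 1.62e-05). Between the EV lines CFTR was called lower in LoVo EV, at 2.99 against 39.1 TPM, and FABP1 was listed at 0 in all EV libraries. AQP3, a water and glycerol channel, was the lower member, and averaged 5.14 ± 0.773 TPM in LoVo-labelled and 16.8 ± 0.914 TPM in DLD-1 cells (limma adjusted p = 2.11e-08).

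Of 27 intestinal lineage transcription factors, 23 were tested and 10 (43.5%) were higher and 2 (8.7%) lower, against 13.0% and 8.93% of all genes; after median-of-ratios scaling 10 were higher and 4 lower. CDX2, the homeobox factor of intestinal identity (ENSG00000165556; chromosome 13, 27962137 to 27971139, minus strand), measured 641, 694 and 545 TPM in LoVo-labelled cells, against 319, 339.7 and 401 TPM in DLD-1 cells. The LoVo-labelled libraries were all higher, 1.77-fold by mean, with a log2 difference of 0.82 (SE 0.13, limma adjusted p = 0.000246). PPARG, a nuclear receptor of colonocyte differentiation, measured 98.1, 108 and 108 TPM in LoVo-labelled cells, against 31.3, 31 and 32 TPM in DLD-1 cells, with a log2 difference of 1.7 (SE 0.093, limma adjusted p = 9.92e-10). ELF3, an epithelial ETS factor, averaged 2948 ± 376 TPM in LoVo-labelled and 1292 ± 87.5 TPM in DLD-1 cells (limma adjusted p = 8.93e-08), and KLF4, a factor of goblet cell differentiation, averaged 82.5 ± 10.7 TPM in LoVo-labelled and 40.7 ± 3.99 TPM in DLD-1 cells (limma adjusted p = 1.2e-05). The lower members PDX1 and GATA6, factors of foregut and endoderm, differed by -0.84 and -0.35. CDX2 and ELF3 differed by 0.82 and 1.17 without drug, close to their differences with it. Between the EV lines, however, CDX2, PPARG, ELF3 and KLF4 were all called lower in LoVo EV, by log2 differences of -1.42, -1.25, -1.28 and -1.2. CDX2 averaged 94.9 TPM in LoVo EV and 254 TPM in DLD-1 EV.

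Pathways that pattern the crypt were read against 13.0% and 8.93% of all genes called higher and lower. Of 24 stem cell and Wnt target genes tested, 5 (20.8%) were higher and 0 lower, among the higher ones the feedback inhibitor AXIN2, which averaged 454 ± 69.98 TPM in LoVo-labelled and 275 ± 15.4 TPM in DLD-1 cells (limma adjusted p = 0.000118), and APCDD1, which averaged 23.2 ± 1.58 TPM in LoVo-labelled and 4.86 ± 0.471 TPM in DLD-1 cells (limma adjusted p = 1.12e-06). DKK1, a secreted Wnt antagonist, stood at 4.2 TPM in LoVo-labelled and 0.146 TPM in DLD-1 cells, while LoVo EV held 47.7 TPM. Of 18 Notch pathway genes tested, 7 (38.9%) were higher and 0 lower, among the higher ones the ligand DLL1 (1.87) and the effector HES1 (0.70). Of 30 TGF-beta and BMP genes tested, 14 (46.7%) were higher and 4 (13.3%) lower. The ligand TGFB2 averaged 42.1 ± 5.37 TPM in LoVo-labelled and 9.11 ± 1.25 TPM in DLD-1 cells (limma adjusted p = 9.95e-09) and the BMP target ID2 averaged 831 ± 35.2 TPM in LoVo-labelled and 462 ± 9.19 TPM in DLD-1 cells (limma adjusted p = 9.89e-07), whereas the matrix protein TGFBI was lower (-1.11, limma adjusted p = 2.44e-07). Of 20 epithelial and mesenchymal state genes, 8 (40.0%) were higher and 2 (10.0%) lower; the higher ones held both the epithelial factors GRHL1 (0.91) and GRHL3 (1.02) and the mesenchymal genes MMP14 (2.04), S100A4 (0.64) and LGALS1 (0.54). LGALS1, galectin 1, lost its call without 1 of the LoVo-labelled libraries (replicate 2, limma adjusted p = 0.0559). Of 19 claudin and tight junction genes, 3 (15.8%) were higher and 4 (21.1%) lower, with CLDN4 at 0.93 and CLDN2, a cation pore of crypt cells, at -1.43. These counts rest on single libraries: 1 was higher without DLD-1 replicate 1 or LoVo-labelled replicate 2, and the number lower was 2 without DLD-1 replicate 2 or LoVo-labelled replicate 1 and 1 without LoVo-labelled replicate 3.

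Of 42 PI3K, AKT and mTOR genes, the pathway that alpelisib targets, 39 were tested and 5 (12.8%) were higher and 2 (5.13%) lower, which is near the share of all genes called higher (13.0%) and lower (8.93%). Only 1 was lower without DLD-1 replicate 3 or LoVo-labelled replicate 2. PIK3CA, the direct target of the drug, measured 13.8, 11.5 and 11.2 TPM in LoVo-labelled cells and 9.92, 9.75 and 11.9 TPM in DLD-1 cells, which overlapped (a log2 difference of 0.19 (SE 0.15, limma adjusted p = 0.402)). PIK3CB, PIK3R1, PIK3IP1 and AKT1 also overlapped and were not called, with log2 differences of -0.0015, 0.29, -0.29 and 0.083. SGK2, an AKT-related kinase, averaged 13.8 ± 0.411 TPM in LoVo-labelled and 4 ± 2.12 TPM in DLD-1 cells (limma adjusted p = 2.43e-05), and the pathway inhibitor TSC1 was higher (0.50). The translation repressor EIF4EBP1 was lower (-0.64, limma adjusted p = 9.15e-05). The receptors and adaptors INSR, IRS2 and ERBB3 were not called, with differences of 0.10, 0.31 and -0.099. A p that misses the threshold does not show that these genes were alike.

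FOXO factors and targets, which PI3K restrains, were higher in 10 (43.5%) and lower in 0 of 23 tested, against 13.0% and 8.93% of all genes, with a median of 0.37. TRIB2 averaged 29.98 ± 5.35 TPM in LoVo-labelled and 13 ± 2.13 TPM in DLD-1 cells (limma adjusted p = 1.23e-05) and CCNG2, a non-cycling cyclin, averaged 149 ± 24.8 TPM in LoVo-labelled and 76.6 ± 11.8 TPM in DLD-1 cells (limma adjusted p = 0.000752). The count fell to 6 without DLD-1 replicate 1. Without drug 5 were higher and 1 lower, where 8.75% and 6.94% of all genes were. Within LoVo-labelled cells 3 rose and 6 fell with alpelisib, where 17.5% and 27.9% of all genes did. Within DLD-1 cells 1 rose and 6 fell, where 10.8% and 25.4% of all genes did. The change between the differences was called in 1 member, and a role of PI3K in the line difference was not tested. Of 18 insulin and IGF genes tested 4 (22.2%) were higher and 1 (5.56%) lower, and the 4 of smallest p were all IGF-binding proteins, with IGFBP3 (1.28), IGFBP4 (0.75) and IGFBP6 (1.26) higher and IGFBP2 lower (-0.49). EGF receptor ligands and feedback genes went both ways, with 5 (22.7%) higher and 7 (31.8%) lower of 22 tested, and 3 higher and 6 lower without DLD-1 replicate 3 or LoVo-labelled replicate 2. EREG, epiregulin, measured 45.4, 46.6 and 36 TPM in LoVo-labelled cells, against 113, 130.1 and 126 TPM in DLD-1 cells, and the groups did not overlap, as for AREG (a log2 difference of -1.51 (SE 0.17, limma adjusted p = 4.47e-06)). DUSP4, a phosphatase of ERK, was higher (1.07), and PHLDA1 was lower (-0.69). Among 18 other receptor tyrosine kinases tested, 6 (33.3%) were higher and 3 (16.7%) lower, with FGFR3, a fibroblast growth factor receptor, at 79.5 TPM in LoVo-labelled and 12.7 TPM in DLD-1 cells (limma adjusted p = 6.47e-09) and KIT not called (0.0029). The number lower was 1 without DLD-1 replicate 1 or 2 or LoVo-labelled replicate 1 or 3, and with 1 TPM required in all 6 libraries 5 were higher and 0 lower of 13.

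LIN28B relieves targets of let-7 from repression. Of 29 LIN28, let-7 processing and let-7 target genes tested, 5 (17.2%) were higher and 3 (10.3%) lower, near the 13.0% and 8.93% of all genes, with a median of 0.13. Without DLD-1 replicate 2 or LoVo-labelled replicate 3, 1 was lower. HMGA2 measured 34.4, 32.7 and 28.1 TPM in LoVo-labelled cells and 34.7, 35.9 and 38.5 TPM in DLD-1 cells and was not called (limma adjusted p = 0.242). IGF2BP3 averaged 13.4 ± 5.85 TPM in LoVo-labelled and 7.67 ± 1.38 TPM in DLD-1 cells and was not called (limma adjusted p = 0.0714), while its relative IGF2BP2 differed by 0.32 (limma adjusted p = 0.0052). CCND2, a D-type cyclin, stood at 2.9 TPM in LoVo-labelled and 0.115 TPM in DLD-1 cells (limma adjusted p = 2.06e-07), and the ARID factors ARID3A and ARID3B were higher (1.23 and 0.85).

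Cell division genes were lower in the LoVo-labelled cells, as a group of 40 mitosis and spindle genes, all tested. Of these 32 were lower and 0 higher, with a median of -0.66, against 8.93% of all genes called lower. CDC20, which activates the anaphase-promoting complex, measured 42.8, 34.9 and 36.6 TPM in LoVo-labelled cells, against 68.3, 62.9 and 62.4 TPM in DLD-1 cells. The groups did not overlap (a log2 difference of -0.75 (SE 0.083, limma adjusted p = 4.76e-06)). TOP2A, the topoisomerase that untangles chromosomes, measured 68, 57.2 and 66 TPM in LoVo-labelled cells, against 109, 109.7 and 107 TPM in DLD-1 cells, with a log2 difference of -0.76 (SE 0.083, limma adjusted p = 4.13e-06). TTK, the spindle checkpoint kinase, had the largest fall of the list and averaged 8.92 ± 0.685 TPM in LoVo-labelled and 22.8 ± 1.55 TPM in DLD-1 cells (limma adjusted p = 6.34e-07). MKI67, the proliferation antigen, averaged 15.8 ± 2.47 TPM in LoVo-labelled and 26.1 ± 1.62 TPM in DLD-1 cells (limma adjusted p = 0.000974), and CDK1, the kinase that drives mitosis, averaged 47.1 ± 6.46 TPM in LoVo-labelled and 75.6 ± 6.16 TPM in DLD-1 cells (limma adjusted p = 0.000117). Without drug 17 of the 40 were lower and 0 higher, at a median of -0.34, against 6.94% and 8.75% of all genes. The change between the differences itself was called in 2, CKS2 (-0.60) and UBE2C (-0.52), against 1.05% of all genes. UBE2C lost that call in 17 of 22 alternatives. The number lower was 37 under either other scaling and 28 to 36 when a library was left out.

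DNA replication and G1/S genes followed in the treated cells. Of 47 tested, 26 were lower and 0 higher, with a median of -0.46, against 8.93% and 13.0% of all genes. Without drug 2 were lower and 2 higher, with a median of -0.039, against 6.94% and 8.75% of all genes. PCNA, the sliding clamp of DNA polymerase, measured 172, 154 and 149.8 TPM in LoVo-labelled cells, against 274, 283 and 295 TPM in DLD-1 cells. Every LoVo-labelled library lay below every DLD-1 library (a log2 difference of -0.84 (SE 0.091, limma adjusted p = 3.77e-06)), and without drug the means were 239 TPM in LoVo-labelled and 259 TPM in DLD-1 cells. PCNA was the 1 member whose change between the differences was called (-0.72, limma adjusted p = 0.011), so the difference was not shown to depend on the drug in the other members. The replicative helicase subunits MCM3, MCM4, MCM5, MCM6 and MCM7 were all lower, from -0.86 to -0.51, and MCM2 was not called (-0.54, limma adjusted p = 0.162). TK1, thymidine kinase, averaged 111 ± 13.9 TPM in LoVo-labelled and 195 ± 11.4 TPM in DLD-1 cells (limma adjusted p = 0.000111), and GINS2, a helicase subunit, averaged 7.48 ± 0.379 TPM in LoVo-labelled and 13.3 ± 0.402 TPM in DLD-1 cells (limma adjusted p = 0.000136). The count of lower genes was 17 without DLD-1 replicate 3 and 32 under either other scaling, each of which also called 1 gene higher. Within the LoVo-labelled cells 39 of the 47 fell with alpelisib and 0 rose, where 27.9% and 17.5% of all genes did. Within DLD-1 cells 15 fell and 1 rose, where 25.4% and 10.8% of all genes did. These counts share libraries with the comparison of the lines.

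Cell cycle inhibitors did not share one direction, with 5 (19.2%) higher and 4 (15.4%) lower of 26 p53 targets and inhibitors tested, against 13.0% and 8.93% of all genes. Of these 3 were lower without DLD-1 replicate 1 and 2 without any single one of the other treated libraries. CDKN1A, the inhibitor p21, measured 27.9, 28.1 and 22.9 TPM in LoVo-labelled cells, against 5.48, 7.62 and 6.46 TPM in DLD-1 cells. Its groups did not overlap (a log2 difference of 1.86 (SE 0.13, limma adjusted p = 2.11e-08)), and its line difference was 1.0 log2 units larger with drug (limma adjusted p = 0.0126). CDKN1C, the inhibitor p57, averaged 26.4 ± 2.17 TPM in LoVo-labelled and 8.68 ± 1.2 TPM in DLD-1 cells (limma adjusted p = 6.15e-08). DDB2 and PLK3, targets of p53 in DNA repair and stress, were lower (-0.64 and -0.81).

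**Figure D3:**
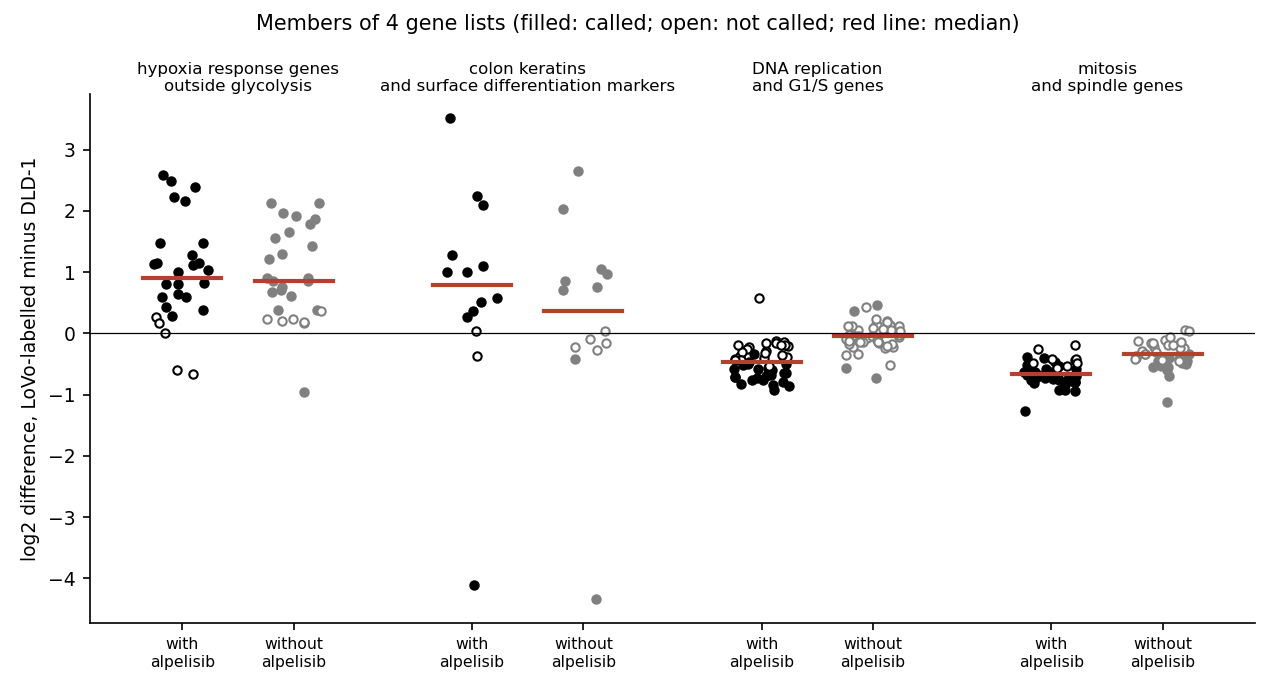
Log2 differences, LoVo-labelled minus DLD-1, of the members of 4 gene lists with alpelisib (black) and without it (grey), filled where called, with red lines for list medians. Hypoxia and colon marker genes lie mostly above 0 in both conditions, mitosis genes lie mostly below 0 in both, and the replication genes have a median of -0.46 with alpelisib and -0.039 without.

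Genes of the hypoxia response formed the list with the highest share of higher calls. Of 31 genes outside glycolysis 28 were tested, 23 (82.1%) were higher, 0 were lower and 5 were not called, with a median of 0.91, against 13.0% of all genes called higher. BHLHE40, a transcriptional repressor, measured 82.6, 108 and 78.4 TPM in LoVo-labelled cells, against 14.6, 17.4 and 13.4 TPM in DLD-1 cells. ANGPTL4, a secreted inhibitor of lipoprotein lipase, measured 68.6, 100.3 and 79.4 TPM in LoVo-labelled cells, against 11.7, 17 and 16.3 TPM in DLD-1 cells. DDIT4, an inhibitor of mTOR complex 1 induced by hypoxia and stress, measured 403, 553 and 367 TPM in LoVo-labelled cells, against 82, 109 and 97.3 TPM in DLD-1 cells. None of the 3 overlapped, and their log2 differences were 2.48, 2.39 and 2.17 (limma adjusted p = 7.74e-10, 3.45e-09 and 8.93e-08). HILPDA, a lipid droplet protein, averaged 70.8 ± 8.58 TPM in LoVo-labelled and 28.6 ± 4.91 TPM in DLD-1 cells (limma adjusted p = 8.38e-07), VEGFA, the vascular growth factor, averaged 226 ± 22.4 TPM in LoVo-labelled and 101 ± 9.22 TPM in DLD-1 cells (limma adjusted p = 1.47e-06), and CA12, a carbonic anhydrase, averaged 34.8 ± 0.789 TPM in LoVo-labelled and 6.68 ± 0.445 TPM in DLD-1 cells (limma adjusted p = 1.56e-08). CA9, the carbonic anhydrase best known as a hypoxia marker, measured 1.25, 0.97 and 0.238 TPM in LoVo-labelled cells and 1.3, 1.74 and 2.04 TPM in DLD-1 cells and was not called (limma adjusted p = 0.128). Without drug 21 were higher and 1 was lower, against 8.75% and 6.94% of all genes. DDIT4 stood at 3104 TPM in LoVo-labelled and 1164 TPM in DLD-1 cells without drug. Between the EV lines DDIT4 was called lower in LoVo EV, at 468 against 833 TPM in DLD-1 EV. In each line 24 of the 28 fell with alpelisib and 1 rose. Of all genes, 27.9% fell and 17.5% rose in LoVo-labelled cells, and 25.4% fell and 10.8% rose in DLD-1 cells.

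Glycolysis and lactate genes showed the same direction less uniformly, with 13 (43.3%) higher and 3 (10.0%) lower of 30 tested. The shares of all genes were 13.0% and 8.93%, and the list median was 0.34. When a library was left out, 10 to 16 were higher and 1 or 2 lower. ALDOC, an aldolase, measured 91, 118 and 83 TPM in LoVo-labelled cells, against 17.1, 21.6 and 20.9 TPM in DLD-1 cells, and the groups did not overlap (a log2 difference of 2.23 (SE 0.13, limma adjusted p = 3.31e-09)). HK1, hexokinase 1, averaged 112 ± 20.6 TPM in LoVo-labelled and 48.5 ± 5.12 TPM in DLD-1 cells (limma adjusted p = 1.42e-05), and PFKFB4, which makes the activator of phosphofructokinase, averaged 85.6 ± 12.9 TPM in LoVo-labelled and 35.2 ± 4.69 TPM in DLD-1 cells (limma adjusted p = 4.16e-07). The lactate exporter SLC16A1 was lower (-0.82, limma adjusted p = 0.00231).

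Of 30 fatty acid and lipid droplet genes tested, 6 were higher and 3 (10.0%) lower, against 13.0% and 8.93% of all genes, and 6 higher and 8 lower after median-of-ratios scaling. SCD, the desaturase that makes oleate, measured 85.2, 106 and 65 TPM in LoVo-labelled cells, against 142, 171 and 171 TPM in DLD-1 cells. The LoVo-labelled libraries were all lower (a log2 difference of -0.94 (SE 0.16, limma adjusted p = 0.000513)). ACSS2, which makes acetyl-CoA from acetate, averaged 166 ± 5.35 TPM in LoVo-labelled and 77.4 ± 6.65 TPM in DLD-1 cells (limma adjusted p = 7.8e-08), and CPT1A, the gate of fatty acid oxidation, averaged 18.1 ± 1.51 TPM in LoVo-labelled and 6.52 ± 0.21 TPM in DLD-1 cells (limma adjusted p = 7.08e-07). Of 28 cholesterol synthesis and sterol genes, 3 (10.7%) were higher and 0 lower as deposited, and 3 higher and 3 lower after median-of-ratios scaling. Without LoVo-labelled replicate 2 these were 2 and 2, and without LoVo-labelled replicate 3 they were 6 and 0.

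Of 34 ATF4 and amino acid response genes, 7 (20.6%) were higher and 1 (2.94%) lower, against 13.0% and 8.93% of all genes, the lower being the glutamine transporter SLC1A5, which averaged 43.8 ± 2.84 TPM in LoVo-labelled and 73.1 ± 0.579 TPM in DLD-1 cells (limma adjusted p = 4.92e-05). NUPR1, a stress-induced chromatin protein, measured 19.4, 23 and 29.9 TPM in LoVo-labelled cells, against 7.13, 1.39 and 3.23 TPM in DLD-1 cells (a log2 difference of 2.51 (SE 0.40, limma adjusted p = 0.00022)). DDIT3, the stress factor CHOP, differed by 0.93 (limma adjusted p = 0.00152). Of 24 unfolded protein response genes 2 (8.33%) were higher and 3 (12.5%) lower, with the chaperone HSP90B1 at -0.35. After median-of-ratios scaling 3 were higher and 7 lower, without mitochondrial transcripts 2 and 7, and without DLD-1 replicate 1 or 2 the number higher was 1. Of 28 NRF2 target and glutathione genes 6 (21.4%) were higher and 6 (21.4%) lower. The peroxidase GPX2 averaged 17.4 ± 2.7 TPM in LoVo-labelled and 1.21 ± 0.0646 TPM in DLD-1 cells (limma adjusted p = 9.33e-09) and the ferritin light chain gene FTL averaged 2650 ± 93.1 TPM in LoVo-labelled and 1275 ± 45 TPM in DLD-1 cells (limma adjusted p = 3.09e-08). UGT1A6 was higher too (2.7), but it shares exons with other UGT1A genes. AP-1 and immediate early genes were higher in 11 and lower in 1 (4.55%) of 22 tested, and JUN measured 133, 146 and 172 TPM in LoVo-labelled cells, against 41.1, 53.5 and 56.4 TPM in DLD-1 cells, without overlap (a log2 difference of 1.57 (SE 0.13, limma adjusted p = 2.13e-07)). JUNB averaged 529 ± 31.4 TPM in LoVo-labelled and 237 ± 19.7 TPM in DLD-1 cells (limma adjusted p = 3.31e-09).

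Of 26 chemokines and cytokines tested 7 (26.9%) were higher and 9 (34.6%) lower, against 13.0% and 8.93% of all genes. LIF, a cytokine of the IL-6 family, averaged 4.54 ± 0.226 TPM in LoVo-labelled and 14.9 ± 0.699 TPM in DLD-1 cells (limma adjusted p = 2.2e-07), and IL18, an inflammasome cytokine, averaged 37.2 ± 2.46 TPM in LoVo-labelled and 77.3 ± 0.622 TPM in DLD-1 cells (limma adjusted p = 1.65e-06), whereas IL1B averaged 6.51 ± 0.573 TPM in LoVo-labelled and 0.564 ± 0.0466 TPM in DLD-1 cells (limma adjusted p = 4.57e-07). Of 34 interferon response genes 6 (17.6%) were higher and 6 (17.6%) lower; IFITM1, an antiviral membrane protein, averaged 72 ± 3.6 TPM in LoVo-labelled and 12.6 ± 1.96 TPM in DLD-1 cells, and ISG15, a ubiquitin-like protein, averaged 118 ± 7.28 TPM in LoVo-labelled and 161 ± 5.7 TPM in DLD-1 cells (limma adjusted p = 3.34e-09 and 0.00114). BST2, tetherin, stood at 8.72 TPM in LoVo-labelled and 0.158 TPM in DLD-1 cells, against 185 TPM in LoVo EV. Of 19 MHC class I and peptide loading genes 1 (5.26%) was higher and 5 (26.3%) lower, the higher being HLA-B, a classical class I gene (1.03). The number lower was 2 without DLD-1 replicate 3 or LoVo-labelled replicate 2 or 3, and 3 without DLD-1 replicate 1 or 2. Reads of HLA genes map with uncertainty between alleles and paralogs.

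Of 19 S100 and annexin genes 5 (26.3%) were higher and 4 (21.1%) lower, against 13.0% and 8.93% of all genes, and the number lower was 2 without LoVo-labelled replicate 2. S100P, a calcium-binding protein of colon and other carcinomas, measured 1072, 1316 and 1025 TPM in LoVo-labelled cells, against 254, 289 and 318 TPM in DLD-1 cells, without overlap (a log2 difference of 1.98 (SE 0.14, limma adjusted p = 2.29e-08)). The annexins ANXA1 and ANXA6 were lower (-0.48 and -0.98). Of 16 metallothioneins and zinc transporters 5 (31.2%) were higher and 2 (12.5%) lower, but 1 higher and 2 lower of the 12 with at least 1 TPM in all 6 libraries. The other 4 higher genes, MT1G and MT1A among them, passed the level filter without reaching 1 TPM in every library. MT2A, a widely expressed metallothionein, averaged 189 ± 11.1 TPM in LoVo-labelled and 394 ± 31.4 TPM in DLD-1 cells (limma adjusted p = 5.06e-07), while MT1A was listed at 0 in all treated DLD-1 libraries and averaged 6.3 TPM in LoVo-labelled cells. PSCA, a cell surface antigen of prostate and bladder, measured 47.5, 75.8 and 66.5 TPM in LoVo-labelled cells, against 11.4, 9.96 and 11.2 TPM in DLD-1 cells (a log2 difference of 2.41 (SE 0.20, limma adjusted p = 1.7e-07)).

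DNA repair, ribosomal, mitochondrial and HOX genes completed the lists. In a list of mismatch repair genes that also holds EPCAM, 1 (9.09%) was higher and 4 (36.4%) lower of 11, against 13.0% and 8.93% of all genes. The number lower was 1 without DLD-1 replicate 2 and 2 without DLD-1 replicate 3 or LoVo-labelled replicate 2 or 3. Of 83 ribosomal protein genes 6 (7.23%) were higher and 1 (1.2%) lower, with 3 higher without DLD-1 replicate 2 or LoVo-labelled replicate 2, and the lower gene, RPL22L1, averaged 208 ± 36.9 TPM in LoVo-labelled and 406 ± 18.6 TPM in DLD-1 cells (limma adjusted p = 9.34e-06). Of 13 mitochondrially encoded genes 5 were lower and 0 higher, all subunits of complex I, among them MT-ND1 (-0.84, limma adjusted p = 0.0064). That count was 1 without DLD-1 replicate 1 or LoVo-labelled replicate 2, 2 without DLD-1 replicate 2, 3 without LoVo-labelled replicate 1 and 9 without DLD-1 replicate 3 or LoVo-labelled replicate 3, so single libraries set it. HOX genes were higher in 7 (24.1%) and lower in 1 (3.45%) of 29 tested with drug, and the number higher was 4 without DLD-1 replicate 3. Without drug 0 were higher and 2 lower, where 8.75% and 6.94% of all genes were. HOXD8 measured 1.99, 2.18 and 3.27 TPM in LoVo-labelled cells, against 0.572, 0.85 and 0.354 TPM in DLD-1 cells (a log2 difference of 1.12 (SE 0.21, limma adjusted p = 0.000867)), and HOXD3 and HOXD4, also low, averaged 3.04 and 3.37 TPM in LoVo-labelled and 1.34 and 1.34 TPM in DLD-1 cells. The change between the differences did not pass the test for HOXD8, HOXD3 and HOXD4 (limma adjusted p = 0.21, 0.128 and 0.178). At a pseudocount of 0.1 in place of 1, HOXD3 and HOXD4 were not called (limma adjusted p = 0.209 and 0.231).

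**Figure D4:**
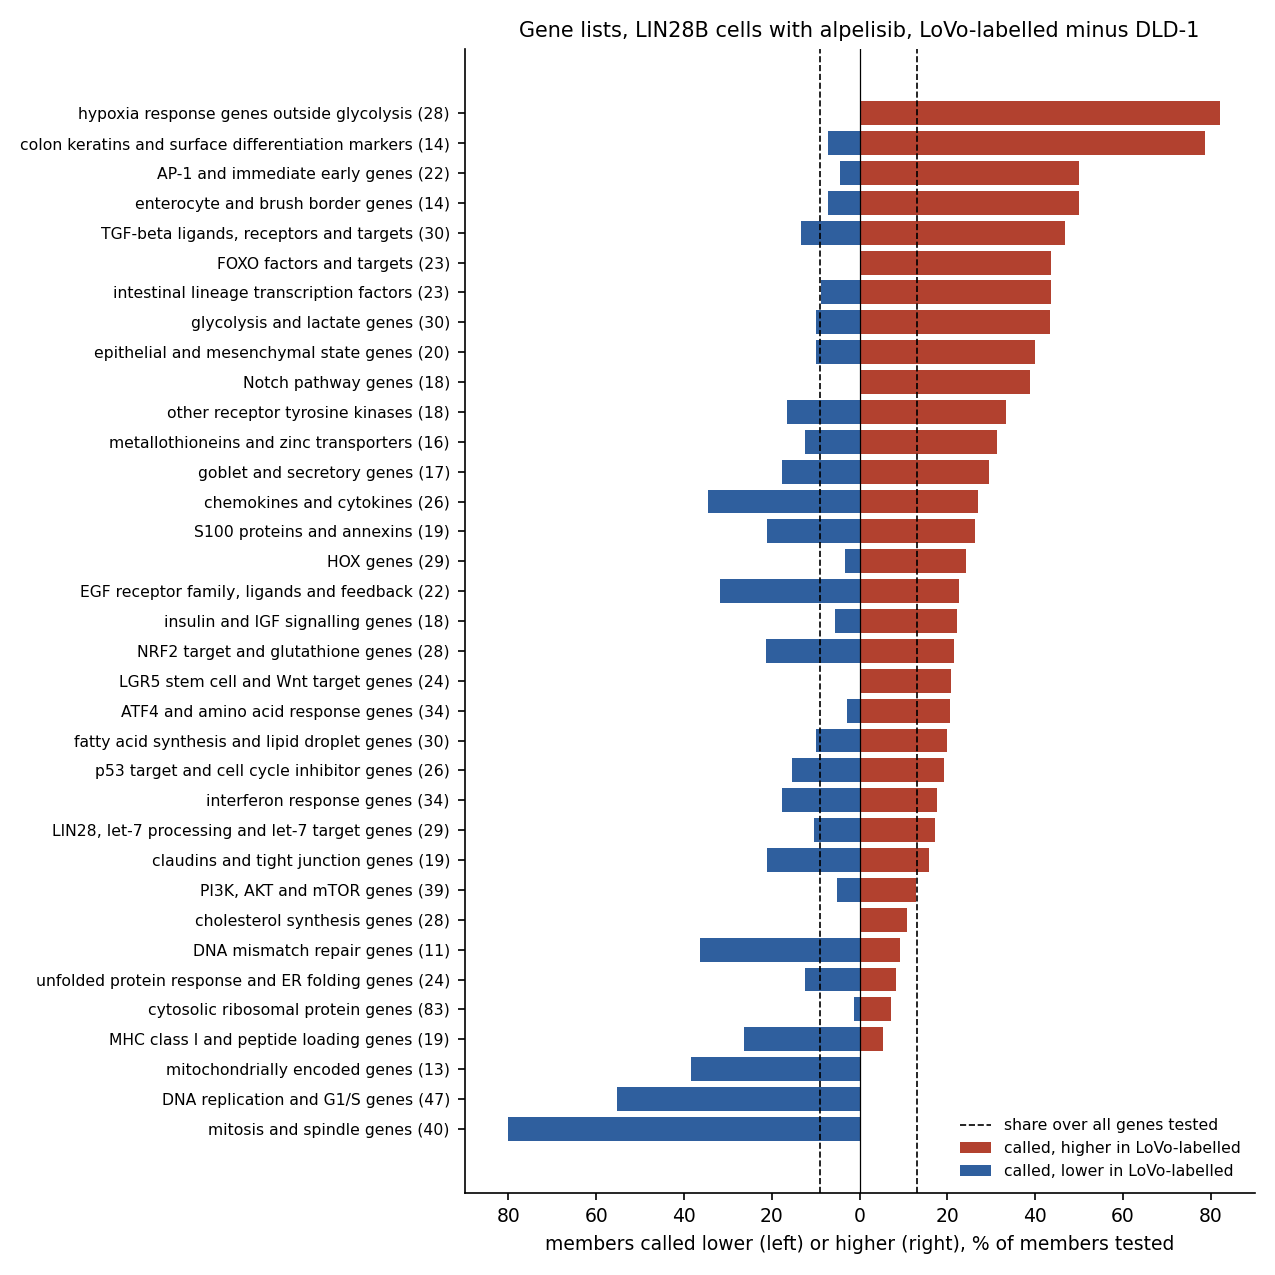
Percent of the tested members of each gene list (number in brackets) called higher, to the right, or lower, to the left, in LoVo-labelled against DLD-1 LIN28B cells with alpelisib; dashed lines give the shares over all genes, 13.0% and 8.93%. Hypoxia genes and colon markers lead on the right, and mitosis and replication genes on the left.

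The line difference with alpelisib was set beside the line difference without it, in libraries that the treated comparison did not use. Without drug 2527 genes were called (15.7%), 1409 higher (8.75%) and 1118 lower (6.94%). Both comparisons called 1557 genes in the same direction, which is 44.2% of the calls with drug and 61.6% of those without, and 23 in opposite directions. Across the 16102 genes Pearson's r of the differences was 0.67; genes are not independent replicates, and both comparisons share the lines. A test of the change between the differences called 169 genes (1.05%), 124 with a positive (0.77%) and 45 with a negative change (0.279%). After median-of-ratios scaling these were 175 and 121 of 296, and with mitochondrial transcripts left out 153 and 93 of 246. Without single DLD-1 libraries the count fell to 104 (alpelisib, replicate 1), 112 (alpelisib, replicate 2), 106 (no drug, replicate 1) and 107 (no drug, replicate 3). Of the 1945 genes called only with drug, 80 had a called change, so the other genes called in 1 condition were not shown to differ between conditions. Between the EV lines 9468 genes were called (58.8%).

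**Figure D5:**
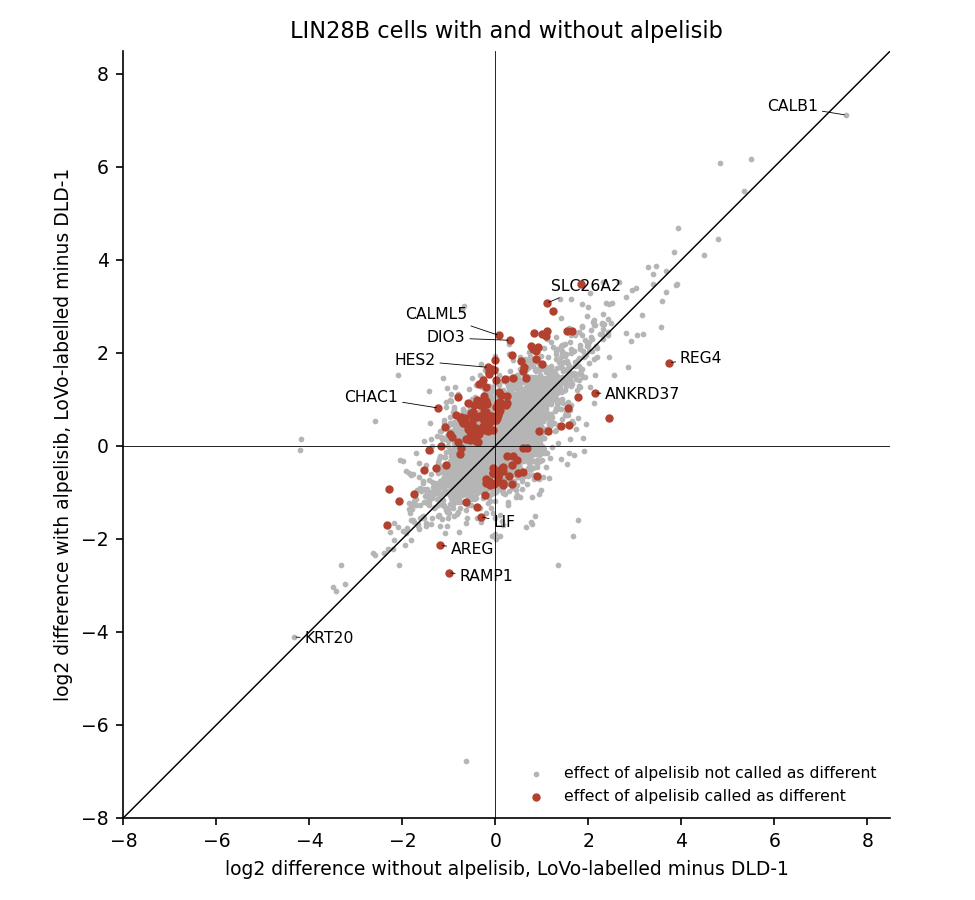
Log2 difference of each gene between LoVo-labelled and DLD-1 LIN28B cells with alpelisib against the same difference without it; the diagonal marks equal differences, and red points are the 169 genes whose change between the differences was called. SLC26A2, CALML5, DIO3 and HES2 lie above the diagonal, and REG4, ANKRD37, AREG and RAMP1 below it.

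Genes whose change was positive included some with a wider gap under alpelisib and some whose gap narrowed or turned. OLR1 was lower in LoVo-labelled cells in both conditions, by 1.71 with drug and 2.32 without it on the log2 scale, a gap that narrowed. CALML5, a calmodulin-like protein of the epidermis, measured 5.54, 5.64 and 5.08 TPM in LoVo-labelled cells, against 0, 0.477 and 0.279 TPM in DLD-1 cells. It was at or under 0.357 TPM in all libraries of both lines without drug, and the change was 2.3 (limma adjusted p = 0.00104). DIO3, which inactivates thyroid hormone, measured 39.2, 44 and 25.7 TPM in LoVo-labelled cells, against 6.14, 6.38 and 7.13 TPM in DLD-1 cells. Without drug it stood at 4.21 TPM in LoVo-labelled and 3.16 TPM in DLD-1 cells (1.95, limma adjusted p = 0.00302). PSCA without drug stood at 6.66 TPM in LoVo-labelled and 2.85 TPM in DLD-1 cells (1.4, limma adjusted p = 0.021). HES2, a repressor related to Notch effectors, averaged 11.7 ± 2.68 TPM in LoVo-labelled and 2.91 ± 0.542 TPM in DLD-1 cells with drug, and 2.12 TPM in LoVo-labelled and 2.46 TPM in DLD-1 cells without it. UPK1A, a urothelial membrane protein, changed by 1.72, and C1QTNF9B, a secreted C1q-like protein, by 1.68. The line difference turned in CHAC1 and KALRN. CHAC1, which degrades glutathione, averaged 11.5 TPM in LoVo-labelled and 30.8 TPM in DLD-1 cells without drug and was called lower, but averaged 8.21 ± 0.322 TPM in LoVo-labelled and 4.29 ± 0.925 TPM in DLD-1 cells with drug and was not called (limma adjusted p = 0.0849). KALRN, a guanine nucleotide exchange factor, was called lower without drug (-0.80) and higher with it (1.05). The change was lost in 14 of 22 alternatives for CHAC1, 7 of 22 for PSCA and 4 of 20 for KALRN, and at a pseudocount of 0.1 for CALML5 and C1QTNF9B.

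Negative changes included gaps that narrowed and gaps that opened downwards. RAMP1 and AREG were lower in LoVo-labelled cells in both conditions and more so with drug, though the change of RAMP1 was lost in 5 of 21 alternatives. AREG measured 92.6, 97.5 and 92.6 TPM in LoVo-labelled and 232, 197 and 217 TPM in DLD-1 cells without drug, and the change was -0.96 (limma adjusted p = 0.000813). ANKRD37, a hypoxia target, averaged 57.2 ± 5.62 TPM in LoVo-labelled and 25.4 ± 1.24 TPM in DLD-1 cells with drug and stood at 487 TPM in LoVo-labelled and 111 TPM in DLD-1 cells without it (-1.0, limma adjusted p = 0.00705). LIF was not called without drug (-0.31) and was lower with it (-1.52). EME1, part of a DNA repair endonuclease, and PLA2G12A, a secreted phospholipase, were likewise called lower with drug only, with changes of -1.01 and -1.17. ZNF462, a zinc finger protein, was called higher without drug (1.57) and was not called with it (0.45). ZDHHC12-DT, a divergent transcript, was called higher without drug (0.48) and lower with it (-0.57). The change was lost in 15 of 21 alternatives for ZNF462 and in 8 of 22 for ZDHHC12-DT.

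The differences were also laid along the genome. Genes of chromosome 20 had a median log2 difference of 0.20, against 0.046 over all genes and 0.13 for the same genes without drug. Of 396 tested on this chromosome, 117 were higher and 32 lower, where 13.0% and 8.93% of all genes were. In 146 bins of 100 neighbouring genes the medians ranged from -0.072 to 0.22, with an SD of 0.059 with drug and 0.05 without. Across the bins Pearson's r between the differences with and without drug was 0.48, a description over bins that share the lines.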

How the data were processed

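Poly(A)-enriched RNA-seq profiles of 18 libraries in 6 groups were read from 1 table of TPM values that the authors deposited, per the file headers. As build, hg38 is named in the submitters' processing notes, which also list DESeq2, HTSeq, Picard and STAR 2.7.10 with neither role nor order. Annotation, strand use and gene lengths are not given in the sources used here. Such values fix each library's total and keep no depth, so a few abundant transcripts can shift all others, no counting interval was possible and no count model was used. Without strand, a gene and its antisense partner cannot be told apart.

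Groups followed the labels. The table listed 61806 identifiers, of which 61757 matched a symbol, and 58254 had a GENCODE 29 position on GRCh38. Genes with 1 TPM or more in 3 or more of the 6 treated LIN28B libraries entered as log2(TPM + 1) into limma 3.58.1 (R 4.3.3) with eBayes and a trend (1 model of 6 groups, 12 residual and 4.49 prior degrees of freedom). P-values were two-sided, adjusted by Benjamini-Hochberg over all genes, and called under 0.05. Fold changes on this scale understate those of low genes. Ratios are of mean TPM, errors are SD (n = 3) unless given as SE, and the change between differences is the interaction of line and drug.

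Alternatives were other pseudocounts, filters and scalings, no trend, only the groups compared, a replicate block and leaving out each library. The members and the 40 gene lists were chosen with earlier results of these data known. Named genes were the 20 largest called differences in each direction (5 TPM or more in a group, no overlap), the 8 largest changes in each direction, a set of marker and pathway genes and up to 4 members of smallest p per list. Not every gene meeting this rule is reported. VEGFA, MKI67, CDK1, UBE2C, MCM2 to MCM7, PDX1, GATA6, SLC16A1 and RNA5-8SN1 were chosen after their values were seen. Promoters are from RefSeq (GRCh38.p14).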

Additional observations from a re-analysis of the deposited data

Results flagged for a closer look

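For the genes below, the effect of alpelisib differed between LoVo-labelled and DLD-1 LIN28B cells by the limma interaction test, and the value is the line difference with drug minus that without, in log2 units. It was positive for SLC26A2 (1.96, limma adjusted p = 7.16e-05), CALML5 (2.3, 0.00104), HES2 (1.84, 0.00104), KRT18 (0.678, 0.00134), DIO3 (1.95, 0.00302), UPK1A (1.72, 0.00619) and GSTM3 (0.598, 0.00919). It was also positive for C1QTNF9B (1.68, 0.00942), CDKN1A (0.999, 0.0126), OLR1 (0.615, 0.0143), KALRN (1.85, 0.0198), PSCA (1.4, 0.021), MUC2 (1.26, 0.0338), CLDN4 (0.685, 0.0384), BHLHE40 (0.827, 0.0406) and CHAC1 (2.04, 0.0409). OLR1, an oxidised-lipoprotein receptor, was lower in LoVo-labelled cells in both conditions, less so with drug, and MUC2, a mucin, was called higher with drug, at 3.96 TPM in LoVo-labelled and 0.399 TPM in DLD-1 cells.

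The value was negative for REG4 (-1.96, 0.000813), AREG (-0.958, 0.000813), LIF (-1.21, 0.00385), MT2A (-0.841, 0.0058), ANKRD37 (-1.0, 0.00705), PCNA (-0.724, 0.011) and EME1 (-1.01, 0.0111). The remaining negative values were those of PLA2G12A (-1.17, 0.0118), CKS2 (-0.601, 0.0122), RAMP1 (-1.73, 0.0208), ZDHHC12-DT (-1.05, 0.0244), UBE2C (-0.52, 0.0469) and ZNF462 (-1.12, 0.049). Of these 29 genes, 17 kept the call in every alternative run, 12 lost it in at least 1, and 0 changed sign.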

How the results depend on the processing

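The number of genes called between treated LoVo-labelled and DLD-1 cells was 3525 as deposited and 2617 to 3118 when a library was left out; without drug it was 2527 and 1758 to 1943, and between the EV lines 9468 and 8401 to 9736. The change between differences was called in 169 genes, 104 to 186 when a library was left out and 296 after median-of-ratios scaling; the cause was not tested. Replicate numbers did not pair the samples (r of the deviations of same-numbered treated libraries -0.227, -0.088 and -0.264); a replicate block gave 3272 genes with drug, 2285 without, 126 for the change and 9240 between the EV lines. Of 203 named genes called, 18 lost the call in some alternative and 0 changed sign; among them were MYLIP, EXO1, PSMB8 and mitochondrial genes. Signs turned in genes near 0 and not called. KIT was -0.0486 after median-of-ratios scaling and -0.0579 without mitochondrial transcripts. With a library left out, the range was -0.0672 to 0.11 for KIT, -0.156 to 0.13 for PIK3CB, -0.00292 to 0.198 for AKT1, -0.0438 to 0.342 for INSR and -0.0548 to 0.223 for TFF3. Depth being unknown, levels under 1 TPM were read as listed.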

Other observations

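RNA5-8SN1, a 5.8S ribosomal RNA gene that is repeated many times in the genome, had the largest negative difference of any gene tested (-6.77) and was not called. It measured 3042, 0 and 0 TPM in treated LoVo-labelled libraries and 1510, 1656 and 1579 TPM in treated DLD-1 libraries. In LoVo-labelled and DLD-1 libraries without drug it measured 1864, 0 and 3820 TPM and 0, 3557 and 7340 TPM. Single libraries were listed at 0 for a transcript that others of the same group held at high levels, and this was not analysed further.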
